A study of Homo sapiens with 20 samples.

Results

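The loci described here are 4 windows of the human genome (build hg19), named after the genes DLGAP2, LZTS1, EFR3A and CHST3, in the rhabdoid tumour cell line G401. They were chosen by measured values: each holds 1 of the strongest H3K27ac regions that both GFP-induced libraries, and neither SMARCB1-induced library, listed as peaks. The windows span 1400000 to 1700000 (DLGAP2), 20050000 to 20250000 (LZTS1) and 132750000 to 133050000 (EFR3A) on chromosome 8, and 73650000 to 73800000 (CHST3) on chromosome 10. When overlapping peaks of the libraries were merged, they held 280 of the 167933 regions of the whole genome, with 87 regions at DLGAP2, 67 at LZTS1, 57 at EFR3A and 69 at CHST3. Because the windows were selected on the contrast of GFP with SMARCB1, their values in that contrast are a description and carry no test.

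All cells carried the genotype SMARCB1(-/-), and doxycycline induced GFP in the control cells and SMARCB1 in the others. The H3K27ac chromatin was prepared with an enzymatic immunoprecipitation kit and a rabbit monoclonal antibody, in 2 libraries for each induced gene. The dose and duration of doxycycline were not given in the sources used here, and no label says that replicates came from separate cultures, so the spread between them may be technical. The series has 20 samples, and its H3K4me3, H3K4me1, SMARCA4 and input samples were not analysed here. All values come from 1 cell line.

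H3K27ac is an acetylation of histone H3 that marks active enhancers and promoters, and long stretches of it often surround genes with a role in cell identity. SMARCB1 is a core subunit of SWI/SNF complexes, which move nucleosomes with energy from ATP, and its loss defines rhabdoid tumours. DLGAP2 encodes a scaffold protein of the postsynaptic density. LZTS1 encodes a leucine zipper protein studied as a tumour suppressor. EFR3A encodes a plasma membrane protein that anchors a phosphatidylinositol kinase complex. CHST3 encodes a Golgi enzyme that adds sulfate to chondroitin, a matrix polysaccharide. Whether the genes share a pathway was not examined, and the windows were grouped by their acetylation alone.

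With GFP induced, 98251 and 79555 peaks were listed in replicates 1 and 2, and with SMARCB1 induced, 145533 and 135472. The most frequent background at a peak summit, found at 54.8% to 66.8% of the peaks of a library, was 1.82 and 3.74 fragments in GFP replicates 1 and 2 and 4.78 and 3.89 in SMARCB1 replicates 1 and 2. This background grows with depth. GFP replicate 1 had the lowest background and both SMARCB1 libraries lay above both GFP libraries. The SMARCB1 libraries, with fewer peaks at these loci, had the longer lists. Whether depth shaped the peaks at these loci was not tested. Read totals are unknown. Among peaks at this background, the weakest listed had 7 and 11 fragments at the summit with GFP and 13 and 11 with SMARCB1. Acetylation below that level does not appear in a list, so an absent peak means a signal that was not listed, not a signal of 0.

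In the GFP-induced cells the 4 windows carried long stretches of acetylation. In the SMARCB1-induced cells EFR3A and LZTS1 were nearly bare of peaks, and DLGAP2 had peaks only in its last 25 kb. The length under peaks at EFR3A was 77.1 and 80.7 kb in GFP replicates 1 and 2 and 0.779 and 1.02 kb in SMARCB1 replicates 1 and 2. At LZTS1 it was 88.3 and 90.1 kb with GFP and 2.94 and 3.14 kb with SMARCB1. At DLGAP2 it was 59.6 and 61.3 kb with GFP and 7.86 and 6.64 kb with SMARCB1. CHST3 stood apart, since it kept 26.1 and 18.9 kb with SMARCB1 against 47.3 and 41.0 kb with GFP. The groups did not overlap in any window.

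**Figure D1:**
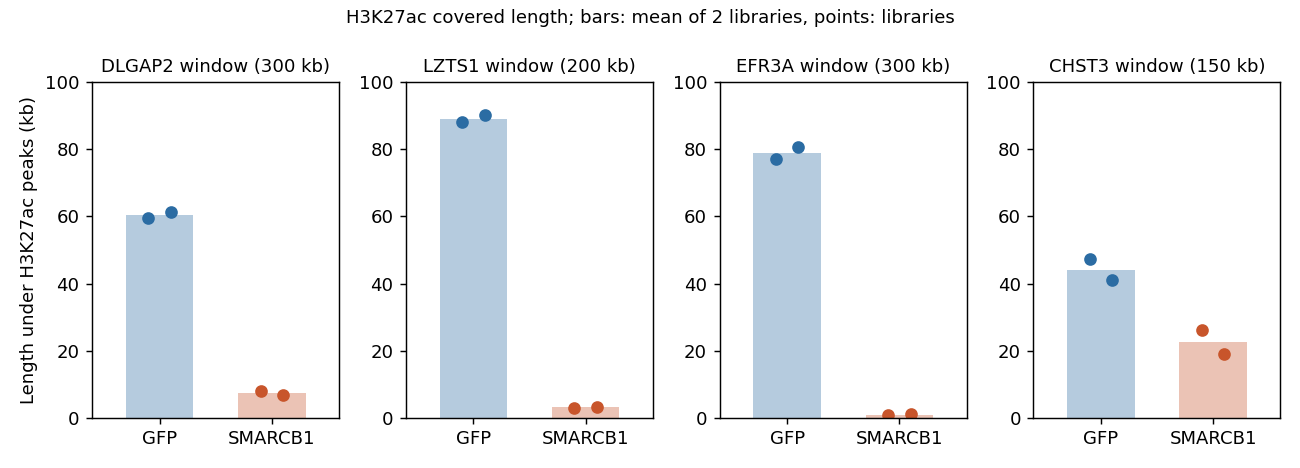
Length under H3K27ac peaks (kb, vertical axis) in the 4 windows, by induced gene. Points are libraries and bars are means of 2 libraries. GFP points lie above SMARCB1 points in every window, and the CHST3 window keeps the most with SMARCB1.

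As means, the covered length was 78.9 ± 2.57 kb with GFP and 0.901 ± 0.172 kb with SMARCB1 at EFR3A, 89.2 ± 1.32 and 3.04 ± 0.141 kb at LZTS1, 60.5 ± 1.20 and 7.25 ± 0.861 kb at DLGAP2, and 44.2 ± 4.47 and 22.5 ± 5.07 kb at CHST3 (SD, n = 2). The difference exceeded the SD of either group in each window, which is a description, since the windows were chosen on this contrast. The SMARCB1 mean was 1.14% of the GFP mean at EFR3A, 3.41% at LZTS1, 12.0% at DLGAP2 and 50.9% at CHST3. For comparison, both SMARCB1 libraries lay below both GFP libraries in 17.7% of all 300 kb tiles of the genome with a peak, in 18.1% of 200 kb tiles and in 18.4% of 150 kb tiles. The opposite order, both SMARCB1 libraries above both GFP libraries, was found in 54.1%, 53.2% and 51.9% of them.

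Few tiles with as much acetylation under GFP had as little under SMARCB1. Of the 216 tiles of 300 kb in which both GFP libraries covered at least 77.1 kb, as at EFR3A, 2 had at most 1.02 kb in both SMARCB1 libraries. The median SMARCB1 coverage over all 216 tiles was 106 kb. Of the 102 tiles of 200 kb that matched LZTS1 in the same way, 1 had no more than its SMARCB1 coverage. The numbers were 3 of 366 tiles for DLGAP2 and 28 of 508 tiles of 150 kb for CHST3. Tiles start at multiples of their length, so the CHST3 window is itself 1 of the 28 tiles, and tiles can overlap the other windows. The limits were the windows' own coverage, on which they were chosen, so these numbers are a description.

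Peak numbers had the same order. EFR3A had 53 and 49 peaks with GFP and 1 and 3 with SMARCB1, LZTS1 82 and 72 against 7 and 6, DLGAP2 61 and 72 against 8 and 5, and CHST3 69 and 51 against 35 and 27. Among the merged regions, 101 were listed by both GFP libraries and by neither SMARCB1 library, which is called lost here. Lost regions made up 3.94% of all merged regions of the genome, and 17.2% of the 38611 regions that both GFP libraries listed. In the windows they were 22 of 23 such regions at EFR3A, 34 of 38 at LZTS1, 28 of 30 at DLGAP2 and 17 of 28 at CHST3. Each window was chosen for holding 1 of the strongest lost regions, so these counts are a description. Regions listed the opposite way, by both SMARCB1 libraries and neither GFP library, are called gained and numbered 1 at DLGAP2, 2 at CHST3 and 0 at LZTS1 and EFR3A. Over the genome they made up 17.5% of all merged regions and 44.5% of those that both SMARCB1 libraries listed, whereas in the windows they were 3 of 18 such regions. A further 154 regions of the windows were listed by 1 library alone, 136 of them by a GFP library and 18 by a SMARCB1 library. Over the genome, 83826 of the 167933 regions were listed by 1 library alone, 23659 by a GFP library and 60167 by a SMARCB1 library.

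**Figure D2:**
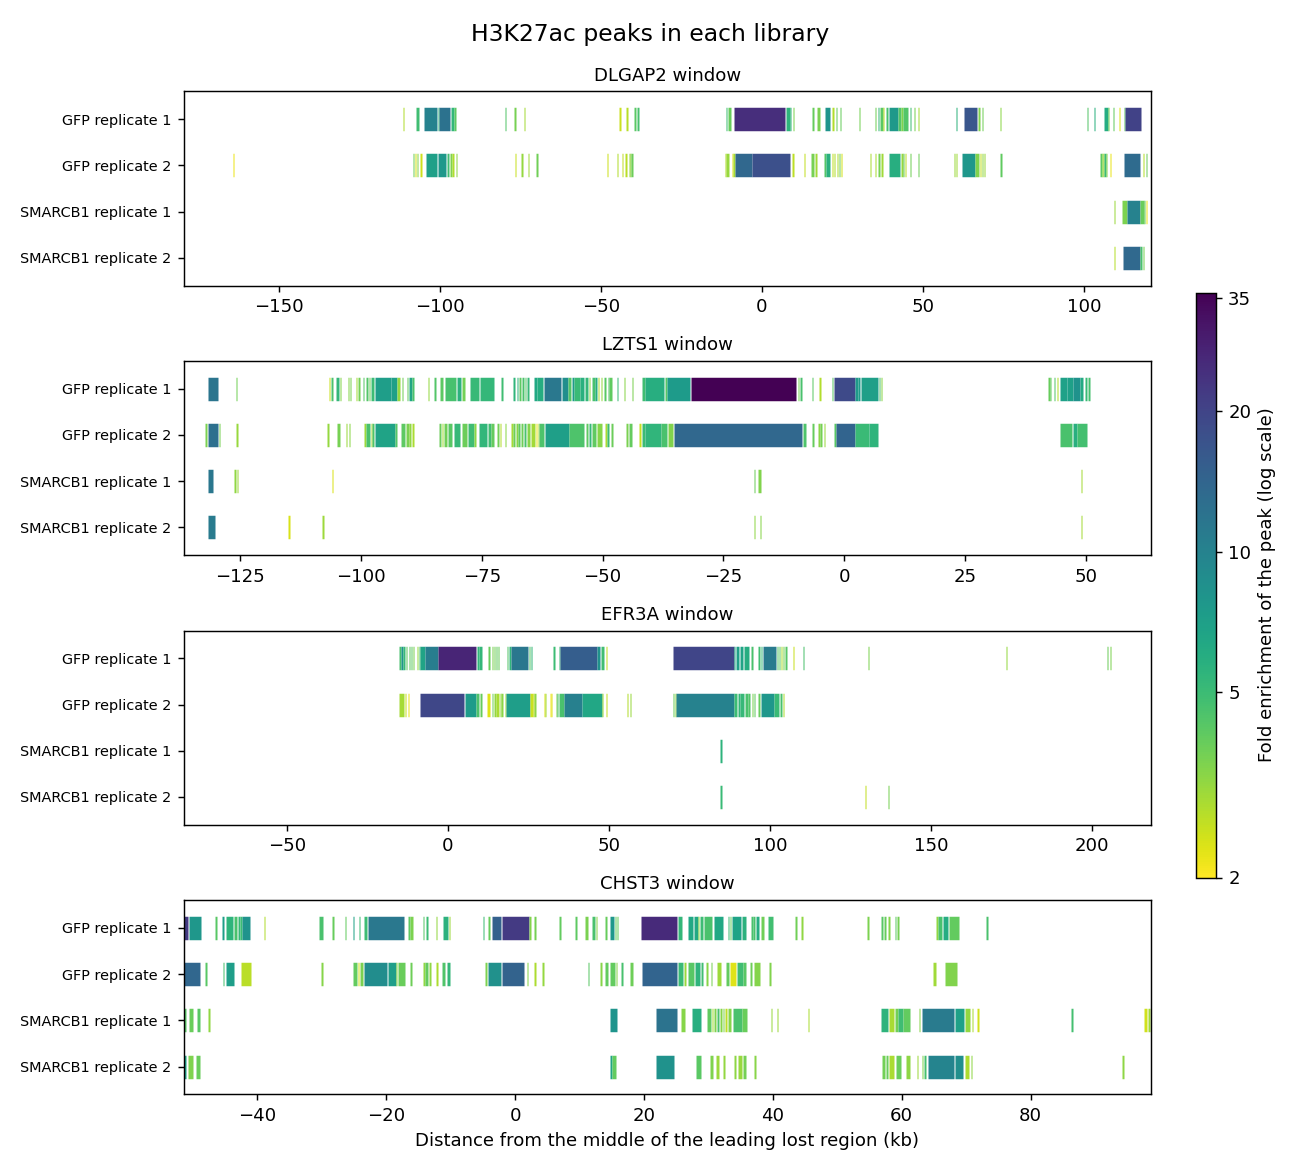
H3K27ac peaks of the 4 libraries in each window. The horizontal axis is the distance (kb) from the middle of the window's leading lost region, each block is a peak, and colour is its fold enrichment on a log scale. SMARCB1 lanes are nearly empty at LZTS1 and EFR3A, filled only at the right edge at DLGAP2, and filled at the left edge and on the right side at CHST3.

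Each window is described from its leading lost region, the one whose fold enrichment was highest when the lower GFP replicate was taken. Fold enrichment is the authors' peak caller's value for the summit over the local background, with 1 fragment added to both. It describes and ranks peaks within a list, and values of different lists are printed side by side without being compared, except that lost regions are ranked by the lower of the GFP values. In that ranking among the 6624 lost regions of the genome, the leading regions of EFR3A, DLGAP2, CHST3 and LZTS1 ranked 1, 3, 4 and 5. The region at rank 2, outside the windows on chromosome 2 from 208031007 to 208033014, had fold enrichments of 30.4 and 17.7 in GFP replicates 1 and 2. The region at rank 6, its neighbour from 208027136 to 208030797, had 21.6 and 14.3.

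At EFR3A the leading region ran from 132823347 to 132840483, a width of 17.1 kb. Its summit held 77 fragments over a background of 1.94 in GFP replicate 1 and 96 over 3.97 in GFP replicate 2, and the deposited fold enrichments, with the added fragment, were 26.6 and 19.5. These were the peaks at rank 1175 and rank 189 of their lists. The summits of the replicates lay 2 bp apart. The nearest SMARCB1 peak was 75850 bp away on one side and 777693 bp away on the other. A second wide lost region followed from 132866343 to 132880290, with fold enrichments of 15.4 and 10.3, and further ones from 132850046 to 132857366 (11.5 and 7.19) and from 132929039 to 132934564 (11.0 and 7.81).

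With SMARCB1, most of the peak length listed at EFR3A lay in a short peak inside a wide GFP region. The region from 132901700 to 132920697 was the only one of the window with a peak in all 4 libraries. Peaks covered 18.9 and 18.6 kb of it with GFP and 0.779 and 0.611 kb with SMARCB1. The fold enrichment there was 19.8 and 10.2 in the GFP lists and 5.58 and 5.10 in the SMARCB1 lists, with 93 and 87 fragments at the summit against 51 and 38. The windows of 500 kb on either side of the EFR3A window held 0 peaks in every library.

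LZTS1 carried the densest acetylation of the 4 windows, with 44.1% and 45.1% of the window under peaks in the GFP-induced libraries. The strongest peak of the window in GFP replicate 1 lay in a region of 27.9 kb, from 20150006 to 20177860, next to the leading lost region. There the fold enrichment was 35.7 in GFP replicate 1, rank 47 of its list, and 13.7 in GFP replicate 2, with 109 and 106 fragments at the summit. The region counts as common to all libraries because each SMARCB1 library had short peaks in it, of 0.793 and 0.669 kb in all against 27.2 and 27.5 kb with GFP. Those SMARCB1 peaks reached fold enrichments of 3.81 and 3.39, from 30 and 20 fragments.

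The leading lost region of LZTS1, from 20184424 to 20188774, was 4.35 kb wide and had fold enrichments of 18.8 and 14.4. Its summits, 159 bp apart, held 57 and 67 fragments. The closest peak of a SMARCB1 library lay 15006 bp off. Another lost region from 20123140 to 20132809 was 9.67 kb wide, with fold enrichments of 11.4 and 7.08. Near the start of the window, a region from 20054867 to 20056957 had peaks in all libraries, with fold enrichments of 11.7 and 12.5 in the GFP lists and 11.4 and 11.0 in the SMARCB1 lists. It covered 2.09 and 2.07 kb with GFP and 1.08 and 1.55 kb with SMARCB1. Beyond the LZTS1 window, the nearest peak of any library was 365 kb before it and 674 kb after it.

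DLGAP2 differed between its last 25 kb and the rest of the window. From its start to 1675000, the SMARCB1 libraries had no peak, while 9 of 11 steps of 25 kb had peaks in both GFP libraries. The leading lost region, from 1570510 to 1588201, was 17.7 kb wide, with fold enrichments of 24.7 and 17.7 and 116 and 92 fragments at the summit. Unlike at EFR3A, the replicates' summits lay 7051 bp apart. The closest SMARCB1 peak lay 96021 bp off. Further lost regions lay from 1641632 to 1647306 (fold enrichments 16.6 and 7.76) and from 1478730 to 1482431 (12.2 and 7.74).

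The last 25 kb of the DLGAP2 window was the only step with SMARCB1 peaks. Peaks covered 7.98 and 8.20 kb of it with GFP and 7.86 and 6.64 kb with SMARCB1, which is all the coverage the SMARCB1 libraries had in the window. The region from 1691213 to 1697878 had fold enrichments of 20.3 and 13.3 with GFP and 10.2 and 13.6 with SMARCB1. It was 1 of 2 common regions of the 4 windows in which both SMARCB1 libraries covered more than both GFP libraries, 6.47 and 6.12 kb against 5.28 and 5.20 kb. In the 500 kb after the window, coverage was 38.6 and 33.0 kb with GFP and 60.4 and 51.1 kb with SMARCB1, the opposite order. In the 500 kb before it, coverage was 16.2 and 16.3 kb with GFP and 0 kb in both SMARCB1 libraries.

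CHST3 held lost regions, shared regions and, at its far end, more coverage with SMARCB1 than with GFP. Its leading lost region, from 73699303 to 73703462, was 4.16 kb wide, with fold enrichments of 22.1 and 14.6 and 67 and 68 fragments at the summit. A SMARCB1 peak lay 12616 bp off, the shortest such distance among the 4 leading regions. In the step from 73675000 to 73700000, the GFP libraries had 11.7 and 12.6 kb under peaks and the SMARCB1 libraries had 0 kb. Lost regions there included those from 73677886 to 73684299 (fold enrichments 11.3 and 8.87) and from 73697208 to 73699179 (14.9 and 8.45).

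The strongest peak of the CHST3 window in GFP replicate 1 lay in a region that all libraries shared, from 73720998 to 73726550. Its fold enrichment was 25.5 and 14.4 with GFP and 12.0 and 8.39 with SMARCB1, with 5.46 and 5.46 kb covered against 3.32 and 2.88 kb. Further along, the order turned. In the step from 73750000 to 73775000 the GFP libraries covered 5.19 and 2.38 kb and the SMARCB1 libraries 11.8 and 9.67 kb. A region from 73764521 to 73771092 held 3.16 and 2.38 kb under peaks with GFP and 6.35 and 5.85 kb with SMARCB1. The fold enrichment in it was 6.01 and 3.46 in the GFP lists and 10.9 and 9.82 in the SMARCB1 lists. Both gained regions of the window, from 73761653 to 73762630 and from 73771206 to 73772005, flanked it.

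**Figure D3:**
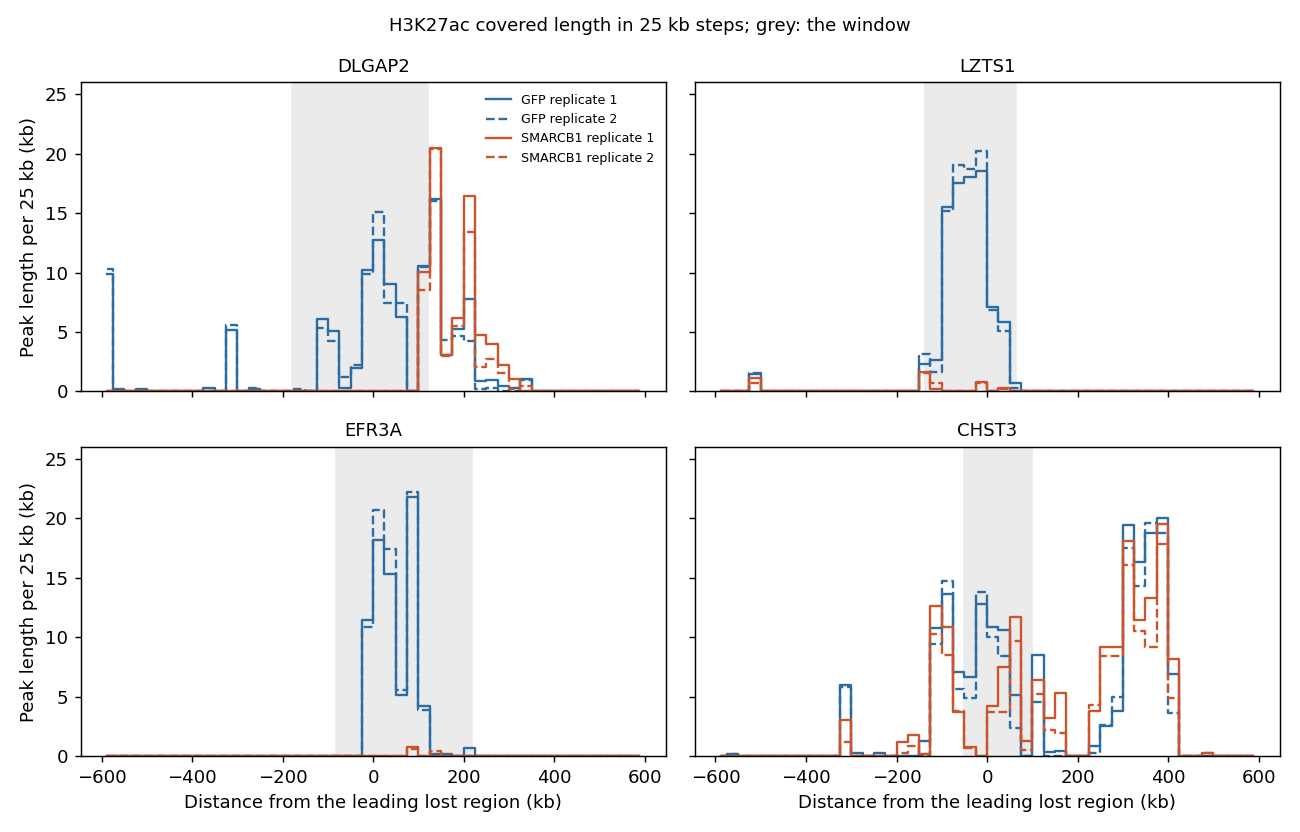
Length under H3K27ac peaks in steps of 25 kb (vertical axis, kb) against the distance from the middle of the leading lost region (horizontal axis, kb). Each line is a library and the grey band is the window. EFR3A and LZTS1 are isolated blocks present mainly with GFP, apart from a short region at the left of LZTS1 that all libraries share. DLGAP2, on its right side, and CHST3, on both sides, border acetylation that the SMARCB1 libraries share.

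Across the 4 windows, both SMARCB1 libraries covered less than both GFP libraries in 27 of the 33 steps of 25 kb that had a peak in any library, and more in 2, both at CHST3. A further 5 of the 38 steps were empty in every library. Over all steps of the genome with a peak, 18.9% had the first order and 45.6% the second. In 18 of the 33 steps with a peak, both GFP libraries had peaks and both SMARCB1 libraries had 0 kb. The share of such steps over the genome was not counted. Of the 13 regions common to all libraries, 7 were covered less by both SMARCB1 libraries, against 28.9% of common regions of the genome, and 2 were covered more, against 30.3%. Those 2 were the region at the end of the DLGAP2 window and the one at the far end of the CHST3 window. The windows were chosen on this contrast, so their counts beside the genome's shares are a description.

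The 101 lost regions of the windows were mostly short and weak, as lost regions were elsewhere. Their median lower fold enrichment was 3.80 and their median width 831 bp, against 3.59 and 522 bp over all lost regions of the genome. Genome-wide, 38 lost regions had a fold enrichment of at least 10 in both GFP libraries, and 5 of them were in these windows, 2 of those at EFR3A. By width, the leading regions of DLGAP2 and EFR3A ranked 4 and 5 among all lost regions, while those of LZTS1 and CHST3 ranked 89 and 100. All 4 were thus far wider than the median lost region. Since the choice of windows rested on strong lost regions, these ranks and counts are a description.

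**Figure D4:**
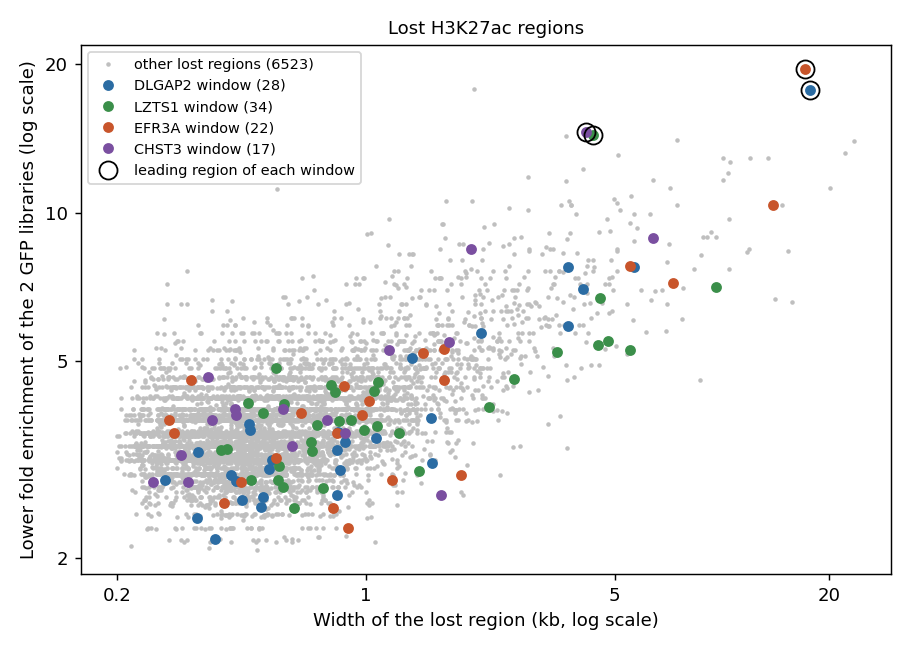
Width (kb, log scale) and lower fold enrichment of the GFP libraries (log scale) of every lost region. Coloured points are the 101 lost regions of the windows and circles mark the leading region of each. The leading regions of EFR3A and DLGAP2, at 17.1 and 17.7 kb, are wider than those of CHST3 and LZTS1, at 4.16 and 4.35 kb, and all 4 exceed the median of 522 bp over all lost regions.

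The authors' tables of stitched enhancers, which join peaks within 12.5 kb away from transcription start sites, described the windows at the scale of domains. Ranks and super-enhancer marks in these tables rest on a signal that all domains with the same identifier share, so they are not a domain's own values where others carry its identifier. The identifiers of the GFP domains described here were given to 13 and 10 domains for EFR3A, 4 in each table for LZTS1, 24 and 7 for the longest at DLGAP2, and 1 and 3 for CHST3. At EFR3A the longest marked domain joined 32 and 33 peaks over 64.6 and 72.2 kb in the GFP tables and was marked as a super-enhancer in both. No peak of either SMARCB1 library lay within it. The SMARCB1 tables held 0 and 1 stitched regions in that window, without a mark.

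The LZTS1 domain joined 62 and 61 peaks over 114 kb in both GFP tables and ranked 1 in the table of GFP replicate 1 and 63 in that of GFP replicate 2. The SMARCB1 libraries had 0.993 and 0.669 kb under peaks within it, and their stitched regions in the window held at most 2 peaks each.

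At DLGAP2 the marked GFP domain of 83.0 and 83.1 kb, joining 31 and 35 peaks, contained no SMARCB1 peak. A second domain at the end of the window, of 56.0 and 53.3 kb, was marked in both GFP tables, and its counterparts of 50.3 and 46.9 kb were marked in both SMARCB1 tables. The identifiers were given to 24 and 23 domains in the GFP tables and to 49 and 31 in the SMARCB1 tables. At CHST3 the GFP tables had a marked domain of 201 and 155 kb that reached beyond the window. In the SMARCB1 tables a domain of 57.3 kb was marked in replicate 1, and in replicate 2 the same stretch was split into domains of 22.6 and 13.9 kb that were not marked. Both SMARCB1 tables marked another domain, of 53.9 and 46.6 kb, that began near the end of the window. The identifier of the 57.3 kb domain was given to 50 domains, and those of the last domain to 49 and 53. These SMARCB1 marks are therefore not the domains' own values.

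In RefSeq's order of protein-coding genes, ERICH1 precedes DLGAP2, and CLN8 and ARHGEF10 follow it. LZTS1 lies between ATP6V1B2 and GFRA2, EFR3A between ADCY8 and OC90, and CHST3 between PSAP and SPOCK2. CLN8 is a membrane protein of the endoplasmic reticulum, PSAP the precursor of lysosomal saposins and SPOCK2 a matrix proteoglycan. The order was read from GRCh38, and no exon, promoter or transcription start was placed on the hg19 peaks. Whether a region lies within a gene or beside it is therefore not stated.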

How the data were processed

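Peak lists of 4 H3K27ac libraries of G401 cells were used, 2 GFP-induced and 2 SMARCB1-induced, grouped by induced gene and antibody in the labels. The windows and lists were chosen with earlier results of these data known. Reads were aligned with BWA 0.7.12-r1039, per the submitters' processing notes. The authors called peaks in each library with MACS2 against hg19 and filtered them, per the file names. Which MACS2 version, control and filter they used is not given in the sources used here. The deposited fold enrichment is a ratio of summit to background fragments with 1 added to each, as the recovered fragments show. Each peak's -log10 p, -log10 q and score are deposited by the authors as well, and the score was not used. Stitched regions, ranks and super-enhancer marks came from ROSE, per the file headers. A table was tied to a library by its name and because 100% of its region limits were limits of that library's peaks, against at most 0.0194% in another list. A further 4 columns of per-sample values matched no sample and were not used.

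Peaks overlapping by at least 1 bp were merged into regions. Covered length is the summed length of peaks within a window, with peaks clipped at its limits. Tiles of the genome were counted where any library had a peak. Whole fragment counts were solved from each peak's fold enrichment and -log10 p by the Poisson tail, and all peaks were recovered, within 0.001, or 0.02 for SMARCB1 replicate 1, whose counts had been scaled by 0.855. Its background of 4.78 fragments is before scaling. Region merging and the recovery of fragments were tested on simulated data. The simulated scales were known and the tolerance differed from those used here, so the search for the scale was not tested. Depth as read totals is unknown. With 2 libraries per group, their number limits the precision, and no test was made on windows chosen from the same contrast. Named regions were the leading lost region of each window, others by fold enrichment, and every gained region; the common regions and the other lost regions singled out were picked after their values were seen. Pathway lists and motif searches planned for these genes were not run, as no hg19 annotation or sequence was used. The settings varied were wider windows, a minimum -log10 q of 5, lists cut to equal length, other rules of overlap, joined peaks, the replicate block and leaving out each library. Tables were made in Python 3.11.15 with pandas 2.3.3, numpy 2.4.6 and scipy 1.17.1, and plots with matplotlib 3.10.9.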

Additional observations from a re-analysis of the deposited data

How the results depend on the processing

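Covered length stayed lower with SMARCB1 in all 4 windows under every alternative run. As the choice of windows rested on this contrast and every run reused the same peak lists, this is a description. The difference, SMARCB1 minus GFP, was -53.2 kb at DLGAP2, -86.2 kb at LZTS1, -78.0 kb at EFR3A and -21.7 kb at CHST3. With a -log10 q of at least 5 it was -41.5 kb at DLGAP2, -78.5 kb at LZTS1 and -71.0 kb at EFR3A. At DLGAP2 it was -51.3 kb with equal numbers of peaks and -41.0 kb in a window widened by 100 kb on both sides. Leaving out 1 library at a time gave -54.1 to -52.4 kb at DLGAP2, -87.1 to -85.2 kb at LZTS1, -79.8 to -76.2 kb at EFR3A and -25.3 to -18.1 kb at CHST3. With the replicate block, the mean of the paired differences equals the difference of means, at -53.2, -86.2, -78.0 and -21.7 kb. The paired differences at CHST3 were -21.3 and -22.1 kb, and no label ties a replicate number to a shared batch.

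Counts of regions depended more on the setting. Lost regions numbered 13 at DLGAP2, 20 at LZTS1 and 14 at EFR3A with a -log10 q of at least 5. With peaks within 1 kb joined they numbered 11 at DLGAP2, 4 at LZTS1, 6 at EFR3A and 6 at CHST3, since joined regions are fewer by construction. Without 1 library they ranged from 28 to 57 at DLGAP2, 34 to 50 at LZTS1, 22 to 39 at EFR3A and 18 to 34 at CHST3, with the highest counts without GFP replicate 1 at DLGAP2 (57) and EFR3A (39) and without GFP replicate 2 at LZTS1 (50) and CHST3 (34). Without GFP replicate 2 the counts at DLGAP2 and EFR3A were 52 and 37. Leaving out a GFP library loosens the rule by definition, since a lost region then needs a peak in 1 GFP list only.

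Gained regions at DLGAP2 numbered 0 with a -log10 q of at least 5 and 0 with equal numbers of peaks, 3 in the widened window and 2 with a reciprocal overlap of 50%. The reciprocal overlap gave 2 at LZTS1, 1 at EFR3A and 9 at CHST3. At CHST3 there were 0 with equal numbers of peaks, 13 in the widened window and 0 with joined peaks. Without 1 library they ranged from 1 to 2 at DLGAP2, 0 to 2 at LZTS1, 0 to 2 at EFR3A and 2 to 11 at CHST3, where the 11 came without SMARCB1 replicate 2, 5 without SMARCB1 replicate 1 and 4 without GFP replicate 1. The 2 at LZTS1 and at EFR3A came without SMARCB1 replicate 1, and the 2 at DLGAP2 without either SMARCB1 library. Leaving out a library loosens this rule by definition too, since fewer lists must hold or lack the peak. The cause of the other changes was not tested.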
